A study of Mus musculus with 22 samples.

Results

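The Prdm16 locus was described in 10 peak lists of histone H3 methylation from the developing mouse neocortex. Its members were chosen by the position of the listed peaks, and were all those that overlapped chromosome 4 from 153.68 to 154.03 Mb in mouse build mm9, an interval of 350 kb. The gene start was taken as 154.01 Mb, a rounded position, and the gene is read towards lower positions. All distances from the start below carry the error of that rounding. This gave 22 peaks of the 110069 in the 10 lists, 9 of H3K4me3 and 13 of H3K27me3. The interval itself was proposed with the peak calls of both marks at this locus known, so presence and absence of peaks are descriptions here. The lists hold positions without gene symbols, and the name rests on the interval alone.

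All animals were of strain C57BL/6JOlaHsd, with no treatment or mutation in the labels. Neuroepithelial cells (NEC) came from embryonic day 9.5 (E9.5). All later cells were taken at E14.5. Apical radial glia were separated into proliferative (aRG-P) and neurogenic (aRG-N) cells, and set beside radial glia of basal position (bRG) and neurons (N). Each cell type and mark had 2 samples, which the labels call technical replicates for aRG-N H3K27me3, but each list was called on a combined file. No value below therefore has a spread between replicates, no difference was tested, and read depth is unknown. How the cells were purified is not given in the sources used here, and their identity was not checked against marker genes. In such mixed material, less of a mark in every cell and fewer cells with the mark cannot be told apart.

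Prdm16 encodes a zinc-finger transcriptional regulator with a PR domain, a fold related to the catalytic domain of histone methyltransferases. In the embryonic cortex it is known as a radial glia gene that is shut down as neurons differentiate, and in other tissues for its part in brown fat and in blood stem cells. H3K4me3 is laid down around active and poised gene starts by complexes of the Trithorax group. H3K27me3 is laid down by Polycomb repressive complex PRC2 and accompanies silenced developmental genes.

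The start lies next to that of a long non-coding RNA, Prdm16os, which is read in the opposite direction in the RefSeq annotation of GRCm38.p6. The peaks at the promoter covered several kb and no strand is recorded in them, so a mark of Prdm16 and a mark of Prdm16os cannot be told apart. The 250 bases before each RefSeq gene start are shown because H3K4me3 typically lies over CpG-rich starts, and every CpG is in capitals. They are credited to RefSeq, GRCm38.p6, which is another build than that of the peaks. The Prdm16 sequence is from the minus strand at chr4:154636874-154637123 and the Prdm16os sequence from the plus strand at chr4:154637330-154637579.
Prdm16: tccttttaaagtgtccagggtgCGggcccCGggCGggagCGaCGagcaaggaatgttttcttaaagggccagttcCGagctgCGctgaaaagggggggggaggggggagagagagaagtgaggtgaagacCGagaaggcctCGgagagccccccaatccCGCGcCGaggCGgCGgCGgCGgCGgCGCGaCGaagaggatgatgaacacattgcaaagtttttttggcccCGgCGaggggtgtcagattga
Prdm16os: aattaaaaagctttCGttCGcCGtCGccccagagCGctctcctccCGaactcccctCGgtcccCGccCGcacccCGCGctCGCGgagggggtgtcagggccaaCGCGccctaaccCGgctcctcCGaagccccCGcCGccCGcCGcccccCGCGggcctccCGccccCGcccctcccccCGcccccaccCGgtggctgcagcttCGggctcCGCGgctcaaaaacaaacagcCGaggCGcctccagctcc

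The Prdm16 sequence held 22 CpGs, against a median of 6 over the 32851 RefSeq promoters of the same length. Its ratio of observed to expected CpGs was 0.99, against a median of 0.373, and exceeded that of 93.8% of promoters. Its GC content was 62.4%, against a median of 52.4%. The Prdm16os sequence was richer still, with 32 CpGs, a ratio of 1.03 and a GC content of 74.8%. Both strands were also searched for 4 short motifs. The GC box GGGCGG was found once before Prdm16 and 6 times before Prdm16os, and 32.7% of all promoters held it. CCAAT occurred once before Prdm16 and not before Prdm16os, and 33.8% of promoters held it. Neither sequence held TATAAA, found in 12.4% of promoters, or the E-box CANNTG, found in 66.2%. The CpGs counted here include those inside GGGCGG.

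At the promoter, H3K4me3 was listed in the 4 progenitor types and not in N, and H3K27me3 was listed in all 5. Promoter here means the window of 10 kb to either side of the start. H3K27me3 covered 13.0 kb of it in NEC cells, 8.68 kb in aRG-P, 6.49 kb in aRG-N, 8.33 kb in bRG and 12.5 kb in N. H3K4me3 covered 4.97 kb in NEC, 3.49 kb in aRG-P, 4.25 kb in aRG-N and 3.11 kb in bRG. The cell types also differed in how far H3K27me3 reached over the stretch that carried H3K4me3 in progenitors. In N it covered the whole stretch, and in NEC, aRG-P and bRG it left a gap there. In aRG-N it stopped just short of the aRG-N H3K4me3 peak. Per the peak names, the N H3K27me3 list was made from reads extended by 200 bp, and the aRG-P H3K27me3 names say "excluding". These steps and the cell type cannot be told apart.

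**Figure D1:**
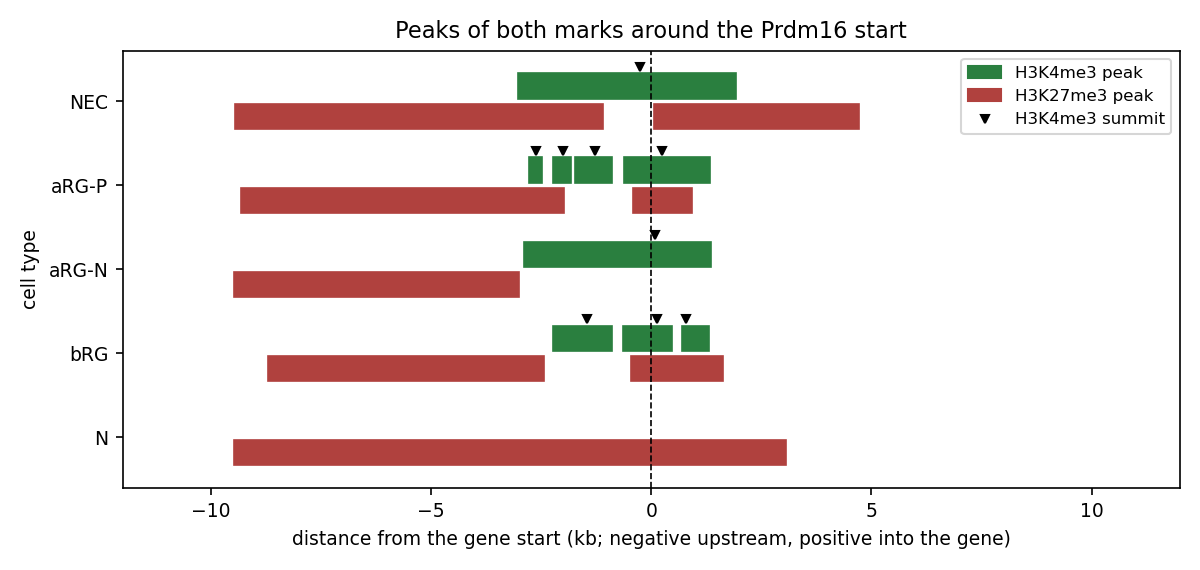
Listed peaks around the Prdm16 start, by cell type (rows) and distance from 154.01 Mb in kb (horizontal axis, gene to the right of the dashed line). Bars span the peaks and triangles mark H3K4me3 summits; in aRG-N the H3K27me3 bar ends where the H3K4me3 bar begins, and in N a single H3K27me3 bar of 12.5 kb spans the start.

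Summed over its peaks, H3K4me3 at the start was long in each progenitor list, with the highest fold enrichments nearer to the middle. In NEC it formed 1 peak from 154008068 to 154013032, and in aRG-N 1 peak from 154008655 to 154012900. In aRG-P the same stretch held 4 peaks, of 1.95, 0.85, 0.408 and 0.281 kb in the direction away from the gene. In bRG it held 3 peaks, of 0.622, 1.13 and 1.36 kb in that direction. The breaks between neighbouring peaks were 90 to 263 bp long in aRG-P and 218 to 227 bp in bRG. The pieces covered 3.49 kb in aRG-P and 3.11 kb in bRG, against 4.97 kb in NEC and 4.25 kb in aRG-N. When peaks that touched were joined over the 5 lists, a region with 4 or more aRG-P peaks was rare, at 72 of 12688 regions with an aRG-P peak (0.567%). A region with 3 or more bRG peaks made up 1.52% of those with a bRG peak. Longer regions have room for more peaks, and regions of like length were not compared.

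Around the start, the edges of H3K4me3 were close in the 4 lists. Its edge inside the gene lay 1.93 kb from the start in NEC and 1.35 kb in aRG-N. The 3 E14.5 progenitor lists placed this edge within 26 bp of each other. The edge on the other side lay between 154012237 in bRG and 154013032 in NEC, a spread of 795 bp. The 4 lists shared stretches of 622, 1108, 850 and 406 bp.

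The authors' fold enrichment, a ratio to background given per peak, reached 21.7 in NEC and 16.2 in aRG-N, and at most 8.997 in aRG-P and 9.30 in bRG. These are values of each list on its own scale and do not rank the cell types. Within its list, the highest promoter peak stood at percentile 56.7 (NEC), 48.0 (aRG-P), 74.9 (aRG-N) and 55.5 (bRG), the percentile being the share of listed peaks with a lower value. The length under H3K4me3 in the joined region stood far higher, at percentile 99.6, 99.4, 99.4 and 98.5 of the regions marked in NEC, aRG-P, aRG-N and bRG. The medians of those regions were 1099, 812, 1001 and 910 bp in the same order. Single peaks were not all wide for their lists. By width they stood at percentile 99.6 in NEC and aRG-N, 15.6 to 97.3 in aRG-P and 38.2 to 84.0 in bRG. The weakest of the 9 H3K4me3 peaks was the outermost in aRG-P, with a fold enrichment of 4.71 and a −log10 q of 4.22.

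**Figure D2:**
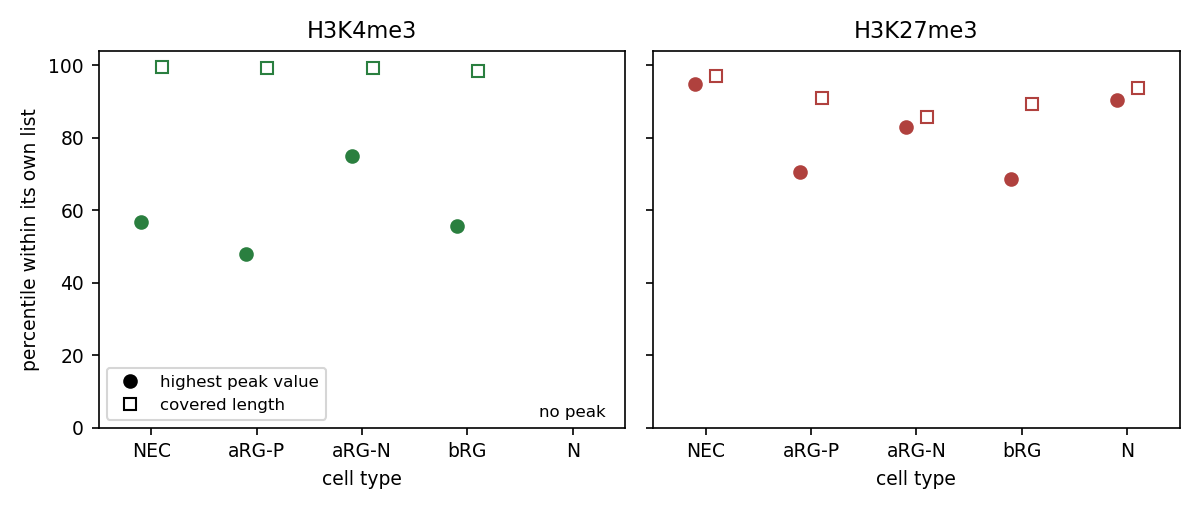
Percentile of the Prdm16 promoter by cell type (horizontal axis). Filled circles give the highest peak value within its list (fold enrichment for H3K4me3, score for H3K27me3). Open squares give the summed length under peaks, among the joined regions marked in that list. For H3K4me3, the covered length lies between percentile 98.5 and 99.6 while the highest value lies between 48.0 and 74.9.

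In N no H3K4me3 peak overlapped the interval. The nearest listed N peaks ended at 153545277 and began at 154229897, and their numbers in the caller's output were consecutive. If the numbers run without breaks over the caller's output, an assumption that was not tested, no unlisted call lay between them over 684.6 kb. All progenitor lists shared 12488 aRG-N peaks, of which 293 (2.35%) met no N peak, the Prdm16 peak being one. Among the 293, the Prdm16 peak ranked 2 by width, 4246 bp against a median of 538 bp, and 3 by fold enrichment, 16.2 against a median of 6.77. Both ranks use aRG-N values alone, and in aRG-P and bRG the stretch was split into shorter peaks. The locus was chosen with its peak calls known, so nothing is read from these ranks.

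H3K27me3 at the promoter had a fixed outer side and a variable inner side. Its edge away from the gene lay between 154018693 and 154019480 in the 5 lists, a spread of 787 bp. Its edge towards the gene varied over 7.71 kb. It lay 4.72 kb inside the gene in NEC, 3.07 kb inside in N, 1.63 kb inside in bRG and 0.925 kb inside in aRG-P. In aRG-N it remained outside the gene, 2.99 kb from the start. The aRG-P edge was that of a weak peak, at percentile 8.22 of its list. The other aRG-P promoter peak began outside the gene, 1.99 kb from the start. Inside and outside here are relative to the rounded start, so these distances carry its error, while the positions of the edges do not. A stretch of 5.70 kb, from 154012993 to 154018693, was under H3K27me3 in all 5 lists. Joined H3K27me3 regions with a peak in all 5 lists were 16.4% of the 13700.

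In NEC, aRG-P and bRG the H3K27me3 around the start was listed as 2 peaks with a gap between them. The gap measured 1.17 kb in NEC, from 154009930 to 154011103, and was wholly under H3K4me3. It measured 1.57 kb in aRG-P, of which H3K4me3 covered 77.5%, and 1.99 kb in bRG, of which it covered 78.1%. The strongest H3K4me3 summit lay inside the gap in NEC, at 154010248. In aRG-P (154009767) and bRG (154009873) the strongest summit lay under the inner H3K27me3 peak instead. That inner peak was weak in aRG-P, with a score of 14.4 at percentile 8.22 of its list. In bRG it had a score of 18.1 at percentile 29.9, and in NEC 27.8 at percentile 77.8. What quantity the H3K27me3 score measures could not be settled, so in this description it ranks peaks within a list.

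The outer H3K27me3 peak was the stronger one in each of these lists. Its score was 55.1 in NEC (percentile 94.9), 21.2 in aRG-P (70.7), and 22.4 in bRG (68.5). The single promoter peak of aRG-N scored 39.7 (82.9) and that of N 39.6 (90.5). By length, 13.0 kb in NEC and 12.5 kb in N stood at percentiles 97.0 and 93.7 of the joined regions marked in those lists. In aRG-P, aRG-N and bRG the lengths stood at percentiles 90.9, 85.7 and 89.4.

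Both marks were listed over the same bases in NEC, aRG-P and bRG. The shared length was 3.79 kb in NEC, which is 76.4% of the H3K4me3 length there. It was 1.88 kb in aRG-P (53.8%) and 1.56 kb in bRG (50.2%). The share of all H3K4me3 peaks that met H3K27me3 stood at 25.9% (NEC), 8.9% (aRG-P), 14.4% (aRG-N) and 8.41% (bRG). That share counts peaks with at least 1 shared bp, so it is not on the scale of the shares of length above. Such overlap joins separate lists from many cells and does not place both marks on the same chromosome copy.

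**Figure D3:**
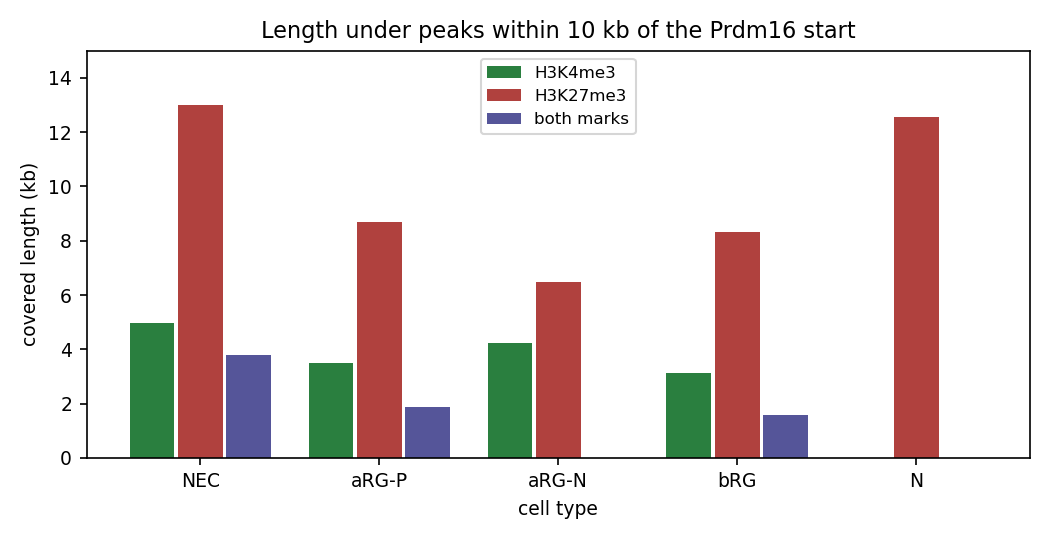
Length in kb under H3K4me3, H3K27me3 and both marks within 10 kb of the Prdm16 start, by cell type. The length under both marks is 3.79 kb in NEC, 1.88 kb in aRG-P and 1.56 kb in bRG, and is 0 in aRG-N and N.

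In aRG-N the marks were adjacent and did not overlap. H3K4me3 ended at 154012900 and H3K27me3 began at 154012993, with 92 bp between them. Of the 12671 aRG-N H3K4me3 peaks that met no aRG-N H3K27me3, 75 had such a peak within 100 bp (0.592%). The limit of 100 bp was set after the data were seen, so nothing is read from this share. The absence of H3K27me3 over the aRG-N H3K4me3 peak thus concerned the start itself, while the outer domain of 6.49 kb was present. No unlisted aRG-N H3K27me3 call lay between this domain and the listed peak below the interval, judged by the peak numbers under that assumption. The H3K27me3 of N covered 100% of the 4246 bp of the aRG-N H3K4me3 peak. That of NEC covered 72.4%, and that of aRG-P and of bRG 53.2% each.

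The gene body, the 320 kb from 154.00 Mb down to 153.68 Mb, was nearly empty. No H3K4me3 peak was listed there in any cell type, and H3K27me3 was listed in N alone. The 4 N peaks lay from 153845758 to 153849121 (3.36 kb), from 153865993 to 153869317 (3.33 kb), from 153918115 to 153919203 (1.09 kb) and from 153930046 to 153931015 (0.97 kb). They lay between 79.0 and 164.2 kb inside the gene and covered 8.75 kb, or 2.73% of the gene body. Their scores were 23.5, 18.4, 17.5 and 16.5 in the same order, at percentiles 56.1, 27.4, 18.3 and 9.24 of the N list. All 4 are weaker than the N promoter peak, and the 2 longer ones lie deepest in the gene. Of all N H3K27me3 peaks, 942 of 5734 met no progenitor peak (16.4%). The N H3K27me3 list was made from reads extended by 200 bp, per its peak names, which no other list states. That step and the cell type cannot be told apart. RefSeq GRCm38.p6 also places the long non-coding RNAs Gm52688, Gm13133, Gm52689 and 5930403L14Rik inside Prdm16. Their positions in mm9 were not read, so a mark of Prdm16 and a mark of these genes cannot be told apart.

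**Figure D4:**
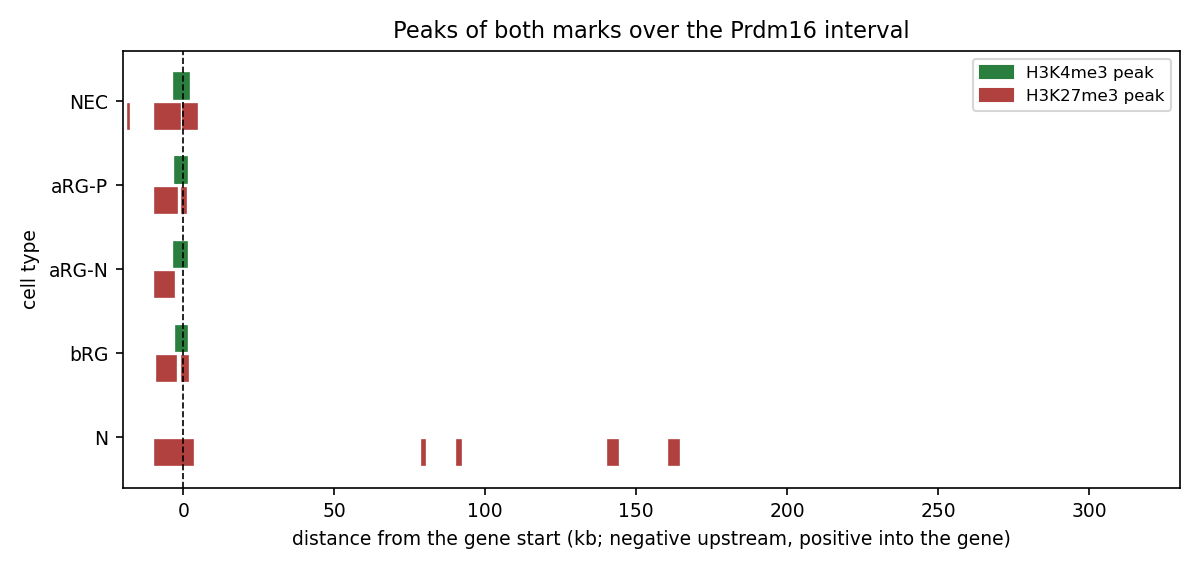
Listed peaks over the whole interval, by cell type (rows) and distance from the gene start in kb (horizontal axis, gene to the right of the dashed line). Outside the promoter there are 4 H3K27me3 peaks of N in the gene body and 1 short H3K27me3 peak of NEC upstream.

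The peak numbers also bear on the empty gene body. The H3K27me3 numbers were consecutive from the peak below the interval to the promoter in all 5 lists, so under the same assumption no H3K27me3 call of the gene body is missing from them. For H3K4me3 the numbers skipped 1 call in NEC, 1 in aRG-P and 2 in aRG-N between the promoter and the next listed peak at lower positions. These calls may lie in the gene body, and their positions are not known. In bRG and N no number was skipped. Upstream of the promoter, the H3K27me3 numbers skipped between 1 and 4 calls before the next listed peak beyond the interval, and no H3K4me3 number was skipped. The lists hold peaks near transcripts, per their headers, which is a filter that could remove calls far from transcripts. Whether it also removed calls inside a gene is not known, and the N H3K27me3 peaks of the gene body were kept.

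The remaining member was a NEC H3K27me3 peak of 0.432 kb from 154027932 to 154028363, 17.9 kb upstream of the start, with a score of 13.3 at percentile 1.19. Just outside the lower end of the interval, H3K27me3 was listed in all 5 cell types within 4.17 to 4.83 kb. At the same place H3K4me3 was listed in NEC, aRG-N and bRG, with fold enrichments of 11.8, 6.34 and 3.39. In aRG-P and N the nearest H3K4me3 peak below the interval was over 134 kb away. Above the interval, the nearest peak lay between 167.5 and 199.9 kb away in the 10 lists.

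Regions most like the Prdm16 promoter were those with the same state in all 10 lists. At the joined H3K4me3 region, from 154008068 to 154013032, that state was H3K4me3 in the 4 progenitor lists and not in N, with H3K27me3 in all 5. The aRG-N H3K27me3 peak reached this region by 40 bp only, through the longer NEC peak. Of 17229 joined regions, 68 had this state (0.395%). By aRG-N fold enrichment the Prdm16 promoter ranked 3 among them, with 16.2. Ahead of it were a region of chromosome 9, 118386640 to 118391640, with 20.3, and one of chromosome 2, 105508450 to 105511291, with 17.8. Behind it were a region of chromosome 15, 85565179 to 85566569, with 11.1, and one of chromosome 16, 35870884 to 35871681, with 10.1. At the regions of chromosomes 15 and 16, H3K27me3 covered every base in each cell type. In aRG-N it covered 40 bp at Prdm16, against 2 bp at the chromosome 2 region and 2178 bp of the 5001 bp at the chromosome 9 region.

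With the aRG-N peak itself as the unit, H3K27me3 was absent in aRG-N and present in the other 4 lists. Of 14801 aRG-N peaks, 3 (0.0203%) had this state together with H3K4me3 in all progenitors and not in N. Besides Prdm16 they were the chromosome 2 peak, from 105508735 to 105511186, and one on chromosome 14 from 122862569 to 122863032. The nearest aRG-N H3K27me3 peak was 92 bp away at Prdm16, against 283 bp at the chromosome 2 peak and 4209 bp at the chromosome 14 peak. All 3 thus had aRG-N H3K27me3 within 5000 bp. The states of the peak and of the joined region were both taken from the locus, so nothing is read from how rare they are.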

How the data were processed

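H3K4me3 and H3K27me3 were profiled by chromatin immunoprecipitation with a low-cell kit and MicroPlex libraries, per the labels' protocols. Bowtie 1.0.0, MACS2, bedtools and build mm9 are named in the submitters' processing notes. Their roles are not given in the sources used here. Titles gave the cell type and mark of the 20 immunoprecipitated samples, 2 per list, and the 2 Input samples were not analysed here.

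Each deposited list gives, for H3K4me3, the authors' fold enrichment (a ratio), −log10 p and −log10 q per peak. The deposited H3K27me3 columns are called a score, since column 9 exceeds column 8 in every peak and so cannot be its q value; the first score column was used. The lists were restricted to the surroundings of transcripts, per the file headers, with a window of 2000 bp named for the 2 apical H3K4me3 lists. Per the peak names each list came from a combined file. Those names also say "excluding" for aRG-P H3K27me3, and an extension by 200 bp for N H3K27me3.

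A shared base (1 bp) counted as overlap. Python 3.11.15, numpy 2.4.6 and matplotlib 3.10.9 were used. Positions are 1-based. Regions are peaks of 1 mark joined over the 5 lists. The overlap calls recovered 200 of 200 simulated losses among 14801 aRG-N peaks. The simulated lists were trimmed copies of those same peaks, so this checks the code and not the losses in the real lists. Peaks at the promoter are all given; alike regions were those with the same state in all 10 lists, the first 5 by aRG-N fold enrichment being named. The locus, lists and rules were chosen with earlier results of these data known. RefSeq tables of GRCm38.p6 gave promoter sequences, the neighbouring gene and the genes inside Prdm16, and no coordinates were converted.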

Additional observations from a re-analysis of the deposited data

How the results depend on the processing

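No paired analysis was possible because each list combines its samples, and for the same reason no sample could be left out. The number of lists with H3K4me3 at the promoter stayed at 4 and in the gene body at 0 with a −log10 q of at least 5 or 10, other windows and lists cut to equal length. H3K27me3 at the promoter was found in 4 lists, all but aRG-N, with a window of 2 kb. Both marks were found in 4 cell types when peaks within 100 bp counted as overlapping, an alternative chosen after seeing the data. In aRG-P, lists of equal length lost the weak inner H3K27me3 peak and the outermost H3K4me3 peak, which together left 254 bp under both marks. The inner H3K27me3 peak also fell under a common lowest score of 15.8, an alternative that assumes scores comparable between lists. With H3K27me3 joined across gaps up to 3000 bp, the length under both marks was 3093 bp in aRG-P and 3112 bp in bRG. Lists of equal length kept 1 of the 4 N gene body peaks, of 3364 bp. In bRG 1134 bp of H3K4me3 had a −log10 q of at least 10. Of 59 recomputed covered lengths that were not 0 throughout, 44 stayed within 1.5 times. The count of aRG-N peaks with the Prdm16 state was 0 when absence needed no peak within 5000 bp and 6 in lists of equal length. Peaks missing in N then numbered 174 under the first rule, and 540 when 50% of the peak had to be covered. Joined regions with the Prdm16 state numbered 44 with a −log10 q of at least 5 and 26 with 50% coverage, where Prdm16 was no longer among them. The cause of these shifts was not tested. Read depth is unknown and limits every absence.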
